A study of Arabidopsis thaliana with 20 samples.

Results

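The root stem cell niche regulators are 10 transcription factor genes, taken by gene code from a table of 32833 genes measured in 20 root libraries. The genes are BRAVO (AT5G17800), WOX5 (AT3G11260), PLT1 (AT3G20840), PLT2 (AT1G51190), PLT3 (AT5G10510), PLT4 (AT5G17430, named BBM in the reference table), SHR (AT4G37650), SCR (AT3G54220), JKD (AT5G03150) and MGP (AT1G03840). The libraries hold RNA of entire roots from Arabidopsis thaliana grafts, whose shoot and root were each either wild type Col-0 (WT) or cpd, a mutant of the brassinosteroid synthesis gene CPD. Groups are written with the shoot before the root: cpd/cpd, WT/cpd, cpd/WT and WT/WT, with 5 replicates each. Each replicate pooled 3 roots, and the labels give neither the age of the plants nor the cpd allele. The titles of the cpd/cpd samples lack the word Grafted that the other titles carry, whereas the design text counts cpd/cpd among the grafts. If cpd/cpd roots differed in grafting, genotype and grafting cannot be told apart wherever that group is compared.

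The root stem cell niche is a small set of initial cells around the quiescent centre, whose cells seldom divide. WOX5 is a homeobox factor of the quiescent centre that keeps the neighbouring columella stem cells undifferentiated, and BRAVO is an R2R3 MYB factor that holds back division of quiescent centre cells. The PLETHORA (PLT) factors form a gradient that is highest at the niche and set stem cell identity, meristem size and the onset of differentiation. SHR is a GRAS factor made in the stele that moves outward by one cell layer, where it acts with its GRAS partner SCR and with the zinc finger proteins JKD and MGP. Brassinosteroids act through the factors BES1 and BZR1, and BES1 is known to repress BRAVO and to act with it as a protein complex in the quiescent centre. The mutant is deficient in this hormone, and the grafts ask whether the root's own genotype or that of the shoot sets the level of these regulators.

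Because BES1 and BZR1 bind brassinosteroid response elements (BRRE) and G-boxes, the 1000 bases before each member's annotated start were searched for both. The motifs were the BRRE forms CGTGTG and CGTGCG and the G-box CACGTG, on both strands, with overlapping matches counted separately, in RefSeq's TAIR10.1 sequence. The stretches with the matches of BRAVO, whose promoter held the most, are shown first, followed by those of PLT3 and JKD. All run 5′ to 3′ on the plus strand, which is the coding strand of these genes, and the capitals mark BRRE and G-box letters on either strand.
BRAVO chr5:5876359-5876658: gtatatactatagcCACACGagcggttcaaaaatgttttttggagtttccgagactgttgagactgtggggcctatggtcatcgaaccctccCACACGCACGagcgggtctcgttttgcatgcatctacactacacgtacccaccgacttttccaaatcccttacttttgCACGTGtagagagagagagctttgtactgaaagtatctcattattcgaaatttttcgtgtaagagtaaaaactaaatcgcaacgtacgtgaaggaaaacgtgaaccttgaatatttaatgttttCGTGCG
BRAVO chr5:5876839-5876898: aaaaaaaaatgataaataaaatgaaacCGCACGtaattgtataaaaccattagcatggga
PLT3 chr5:3314726-3314785: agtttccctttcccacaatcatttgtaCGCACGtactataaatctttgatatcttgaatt
JKD chr5:745258-745317: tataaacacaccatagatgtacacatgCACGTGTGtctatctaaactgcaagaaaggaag

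BRAVO lies on chromosome 5 from 5877113 to 5879331, PLT3 on chromosome 5 from 3315401 to 3320323 and JKD on chromosome 5 from 745421 to 749028, and the stretches shown are intergenic sequence upstream of them. BRAVO held 5 BRRE matches, at -740, -662, -658, -460 and -247 from its annotated start, and 1 G-box at -584. The matches at -662 and -658 overlap, as the run of capitals in the first stretch shows. PLT1 held 1 BRRE match (-273), as did PLT3 (-648), SCR (-999) and JKD (-134), while WOX5, PLT2, PLT4, SHR and MGP held 0. The JKD match overlaps a G-box at -136, and MGP held 2 G-boxes (-468 and -454). Among 27443 promoters of protein-coding genes, 21.1% held at least 1 BRRE match and 6 promoters (0.0219%) held 5, the highest number found. CGTGTG occurred in 17.2% of these promoters, CGTGCG in 5.09% and the G-box in 14.8%. No other gene is annotated inside the searched window of any member. A match describes the letters of the window and does not show binding.

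**Figure D1:**
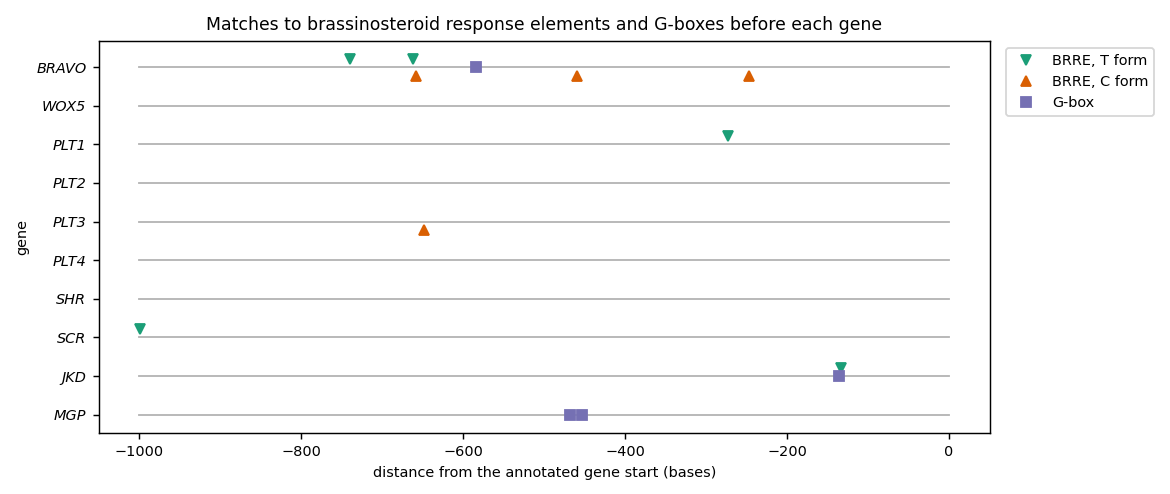
Matches to the BRRE forms CGTGTG (T form, above the line) and CGTGCG (C form, below the line) and to the G-box (on the line) in the 1000 bases before the annotated start of each niche regulator, against distance from the start in bases. BRAVO carries 5 of the 9 BRRE matches among the 10 genes.

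Library totals ran from 13417029 to 32337043 counts, and every member was detected in every library. CPD averaged 2.84 ± 0.63 counts per 1e6 counts of the scaled library (CPM) in cpd/cpd and 4 ± 0.751 in WT/cpd, against 40.9 ± 4.54 in cpd/WT and 45.5 ± 4.93 in WT/WT (SD, n = 5 each), so the libraries matched the labelled root genotypes. Of the endodermis, root hair and vascular marker lists, 0 genes were at 0 in all libraries. All 10 members passed the filter on low counts. Each comparison below counts members whose Benjamini-Hochberg adjusted p was under 0.05 over the 20862 genes tested in edgeR's quasi-likelihood test. The comparisons share groups with each other, so their results are given side by side and are not independent of each other. In RNA from whole roots, fewer cells of a type and less RNA per cell cannot be told apart.

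Per kilobase of merged exons, JKD had the highest level, with 17.8 ± 2.21 CPM per kb over the 20 libraries (SD). PLT3 followed with 15.2 ± 2.78, SHR with 13.9 ± 1.06, SCR with 12.1 ± 1.14, MGP with 8.83 ± 1.34 and BRAVO with 8.53 ± 2.82 CPM per kb. PLT1 had 5.07 ± 0.794, PLT2 3.72 ± 0.773, PLT4 3.49 ± 0.856 and WOX5 0.98 ± 0.322 CPM per kb. The ranges of neighbours in this order overlapped, except that PLT4 (1.95 to 5.07) lay above WOX5 (0.411 to 1.59). Within libraries, SCR was above MGP in 20 of 20 and PLT1 above PLT2 in 19 of 20, whereas MGP was above BRAVO in 10 of 20. By CPM over the tested genes, PLT3 stood at the 75.1th percentile and WOX5 at the 7.05th.

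BRAVO followed the genotype of the root. Its level was 16.8, 15.9, 14.9, 15.6 and 14.7 CPM in the 5 cpd/cpd libraries and 17.4, 14.1, 11.9, 15 and 14.7 CPM in the WT/cpd libraries. In WT roots it was 9.82, 10.7, 7.45, 9.45 and 7.94 CPM under a cpd shoot and 8.86, 8.82, 6.54, 5.94 and 6.5 CPM under a WT shoot. All 10 libraries from cpd roots (11.9 to 17.4 CPM) lay above all 10 from WT roots (5.94 to 10.7 CPM). Every WT/cpd library lay above every WT/WT library in 3.16% of all tested genes. The share for cpd/cpd above cpd/WT was 2.23%. For all 10 against all 10 libraries no share was computed.

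Under a WT shoot, BRAVO was 1.98-fold higher in cpd than in WT roots (log2 fold change 0.99 ± 0.13 SE, adjusted p = 0.00024). Under a cpd shoot it was 1.72-fold higher (0.78 ± 0.12, adjusted p = 0.0038), and between the whole grafts cpd/cpd and WT/WT 2.12-fold (1.08 ± 0.13, adjusted p = 7.5e-05). The 2 root effects did not differ past the threshold: the interaction was -0.21 with a 95% interval from -0.59 to 0.17 (adjusted p = 0.49). Averaged over both shoots, the root effect on the log2 scale was 0.88 ± 0.09 (adjusted p = 5.7e-06).

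The shoot gave no call for BRAVO. On a WT root the log2 difference between a cpd and a WT shoot was 0.30, with a 95% interval from 0.03 to 0.57 (adjusted p = 0.14), and on a cpd root it was 0.09, from -0.17 to 0.35 (adjusted p = 0.7). Relative to SHR in the same library, BRAVO counts had a median ratio of 0.505 in cpd/cpd and 0.503 in WT/cpd, against 0.294 in cpd/WT and 0.221 in WT/WT. The lowest ratio in a cpd root, 0.433, was above the highest in a WT root, 0.355, so the split was present in this ratio without library scaling. Ratios to PLT3 and to WOX5 separated WT/cpd from WT/WT, but not cpd/cpd from cpd/WT. Relative to PLT3 they were 0.24 to 0.361 in cpd/cpd and 0.177 to 0.335 in cpd/WT. Relative to WOX5 they were 9.52 to 34 and 7.5 to 14.9 in these groups.

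**Figure D2:**
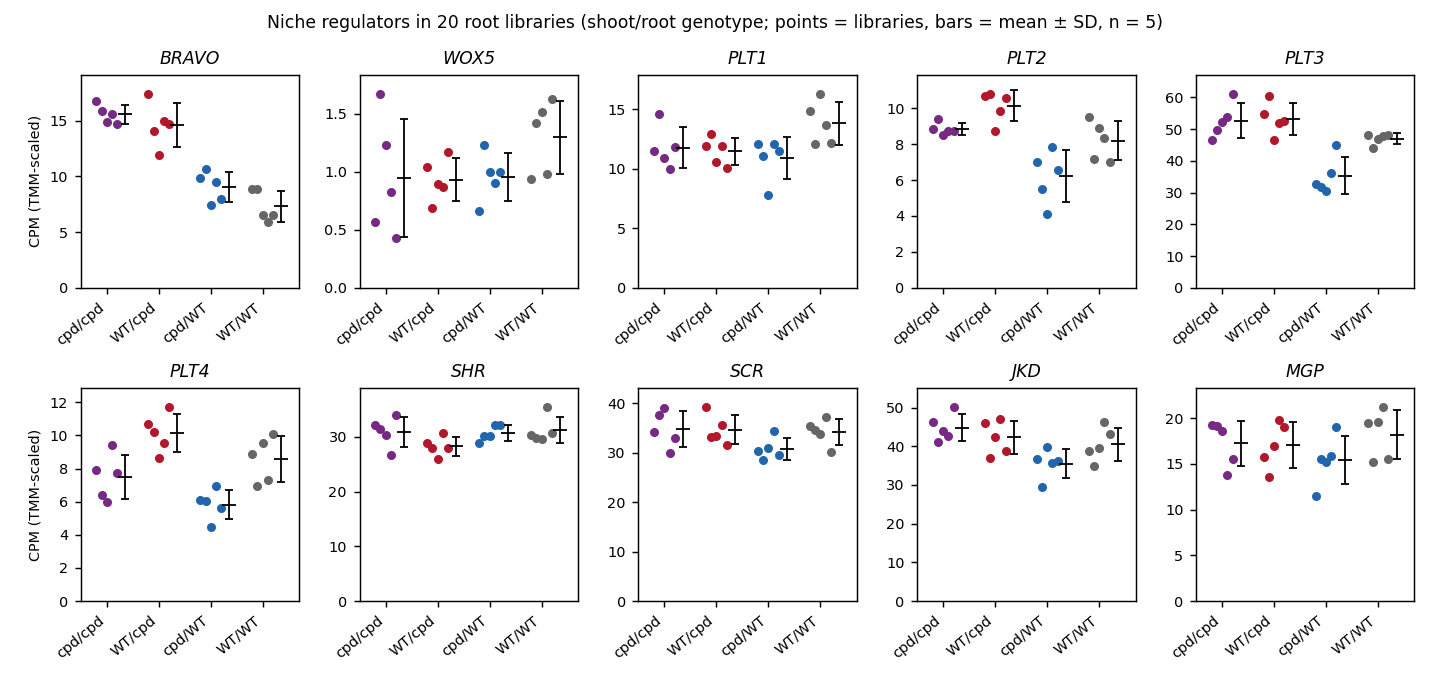
Level of the 10 niche regulators in CPM of the TMM-scaled library (linear axes from 0) in the 4 graft groups, named shoot/root. Points are the 5 libraries of a group and bars the mean ± SD. BRAVO lies between 11.9 and 17.4 CPM in cpd roots and between 5.94 and 10.7 CPM in WT roots, PLT2, PLT3 and PLT4 have their lowest means in cpd/WT, and SHR stays between 25.9 and 35.4 CPM.

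The listed partners of BRAVO in control of quiescent centre division number 9, of which 8 were tested. For the root genotype 0 of the 8 were called under a WT shoot, where 9.45% of all tested genes were called, and 0 under a cpd shoot, where 1.86% were, so few calls would be found at those shares. Of their log2 differences 7 of 8 were positive under a WT shoot and 3 of 8 under a cpd shoot. TPL, the corepressor recruited by BES1, averaged 291 ± 23.5 CPM in cpd/cpd, 311 ± 28.5 in WT/cpd, against 294 ± 34.7 in cpd/WT and 307 ± 5.42 in WT/WT. BES1 averaged 68.7 ± 5.78, 78.4 ± 10.5, 66.7 ± 9.72 and 67.8 ± 3.12 CPM in the same groups, without a call in any of the 8 comparisons. The transcript of BES1 says nothing of the activity of the protein, which brassinosteroids control through its phosphorylation.

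PSKR1, a receptor of the peptide phytosulfokine, had its lowest mean in cpd/cpd, with 52.5 ± 4.01 CPM there, 66.9 ± 5.39 in WT/cpd, against 64.4 ± 6.63 in cpd/WT and 57.6 ± 3.72 in WT/WT. On cpd roots it fell by 0.35 ± 0.08 on the log2 scale with a cpd against a WT shoot (adjusted p = 0.014), and the interaction was -0.51 ± 0.11 (adjusted p = 0.0088). AGL42, a MADS-box gene known as a quiescent centre marker, averaged 24.9 ± 2.77 CPM in cpd/cpd, 29.1 ± 4.16 in WT/cpd, against 29.9 ± 1.74 in cpd/WT and 24.5 ± 3.59 in WT/WT. Only its interaction was called among its 8 comparisons (-0.51 ± 0.15, adjusted p = 0.045): its means were higher in both grafts of unlike genotypes than in both of like genotype. Of the 8 tested partners, 2 were called for the interaction, against 7.73% of all tested genes, and 1 for the shoot on cpd roots, against 4.66%. ERF115, a driver of quiescent centre division, had 0 to 2 counts per library and was not tested.

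WOX5 was the member with the fewest reads, 10 to 40 counts per library. Its level was 0.565, 1.67, 1.23, 0.824 and 0.432 CPM in cpd/cpd, 1.04, 0.686, 0.898, 0.866 and 1.17 CPM in WT/cpd, 0.659, 1.23, 0.994, 0.902 and 0.993 CPM in cpd/WT, and 0.937, 1.42, 1.51, 0.976 and 1.63 CPM in WT/WT. The groups overlapped in every comparison, and the spread was widest in cpd/cpd, where the lowest and the highest of the 20 values both occurred. Under a WT shoot the root effect on WOX5 was -0.46 on the log2 scale, with a 95% interval from -1.11 to 0.18. Under a cpd shoot it was -0.01, from -0.66 to 0.63. The estimated root effects of BRAVO, 0.99 and 0.78, lie above the WOX5 intervals for the same shoots, but this leaves out the error of the BRAVO estimates. A difference between BRAVO and WOX5 was not tested.

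Of the 4 PLETHORA genes, PLT2, PLT3 and PLT4 each had their highest mean in WT/cpd and their lowest in cpd/WT. PLT1 also had its lowest mean in cpd/WT, and its highest in WT/WT. PLT3 had 46.5, 49.7, 52.2, 53.7 and 61.1 CPM in cpd/cpd, 54.7, 60.3, 46.5, 52 and 52.5 in WT/cpd, against 32.7, 31.9, 30.6, 36.3 and 44.9 in cpd/WT, and 48, 44.2, 47, 47.9 and 48 in WT/WT. All cpd/cpd libraries lay above all cpd/WT libraries, as in 2.23% of all tested genes. In addition, 4 of the 5 cpd/WT libraries lay below the lowest WT/WT library. PLT3 is active in the meristem and in lateral root founder cells.

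Under a cpd shoot, PLT3 was 1.49-fold higher in cpd than in WT roots (log2 fold change 0.58 ± 0.09 SE, adjusted p = 0.0041). Under a WT shoot the difference was 0.18 ± 0.09 (adjusted p = 0.26), and the interaction was 0.40 ± 0.13 (adjusted p = 0.073). Without cpd/WT replicate 5, the highest library of that group, the interaction was 0.50 with an adjusted p of 0.015. This was the 1 call among 28 alternative settings, over which the adjusted p reached 0.17. On WT roots PLT3 fell by 0.41 ± 0.09 with a cpd against a WT shoot (adjusted p = 0.014), and on cpd roots the shoot effect was -0.02 ± 0.09, with a 95% interval from -0.21 to 0.18. Its last 454 bases overlap RBK1 (AT5G10520), a gene on the opposite strand, and the strand setting of the counting is not given in the sources used here. RBK1 averaged 16.8 ± 2.58 CPM in cpd/cpd, 15.6 ± 5.39 in WT/cpd, against 20.3 ± 3.9 in cpd/WT and 21.4 ± 3.39 in WT/WT and was called in 0 of the 8 comparisons.

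PLT4, also known as BABY BOOM, had 7.88, 6.42, 5.98, 9.41 and 7.74 CPM in cpd/cpd, 10.7, 10.2, 8.63, 9.57 and 11.7 in WT/cpd, against 6.07, 6.01, 4.47, 6.94 and 5.63 in cpd/WT, and 8.86, 6.95, 9.56, 7.32 and 10.1 in WT/WT. Every cpd/WT library was below every WT/WT library, as in 3.02% of all tested genes, but only narrowly (highest 6.94 against lowest 6.95 CPM). The cpd/cpd and WT/cpd libraries overlapped through 1 high cpd/cpd library. Of the 10 members it was the one called for the shoot averaged over both roots, where it fell by 0.50 ± 0.10 with a cpd shoot (0.709-fold, adjusted p = 0.0064). On WT roots the shoot effect was -0.55 ± 0.14 (adjusted p = 0.022). That call was lost without cpd/WT replicate 3 (adjusted p = 0.054) and without WT/WT replicate 1 (0.055), replicate 3 (0.058) or replicate 5 (0.056). On cpd roots the shoot effect was -0.44 ± 0.14 (adjusted p = 0.074), and without cpd/cpd replicate 4 it was -0.53 with an adjusted p of 0.037. Of 19 alternative settings, 4 called this effect. The interaction of 0.11 ± 0.20 (adjusted p = 0.77) gave no call of a difference between the shoot effects on the 2 roots.

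PLT2 had 8.86, 9.38, 8.51, 8.71 and 8.73 CPM in cpd/cpd, 10.7, 10.8, 8.74, 9.85 and 10.6 in WT/cpd, against 7.01, 5.49, 4.11, 7.84 and 6.58 in cpd/WT, and 9.54, 7.2, 8.91, 8.34 and 7.01 in WT/WT. The cpd/cpd libraries all lay above the cpd/WT libraries, as in 2.23% of all tested genes, whereas WT/cpd and WT/WT overlapped. Averaged over both shoots, PLT2 was 1.32-fold higher in cpd than in WT roots (0.40 ± 0.09, adjusted p = 0.016). Within single shoots the root effect was 0.51 ± 0.13 under a cpd shoot (adjusted p = 0.053, and 0.04 without cpd/WT replicate 4) and 0.30 ± 0.13 under a WT shoot (adjusted p = 0.16). Of 19 alternative settings, 4 called the root effect under a cpd shoot and 0 that under a WT shoot. The shoot effect on WT roots was -0.40 ± 0.13 (adjusted p = 0.065, and 0.038 without cpd/WT replicate 4), and 2 of 19 alternative settings called it.

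PLT1, which overlaps PLT2 in function in the embryonic and seedling root, gave no call in any of the 8 comparisons. It averaged 11.8 ± 1.73 CPM in cpd/cpd, 11.5 ± 1.14 in WT/cpd, against 10.9 ± 1.79 in cpd/WT and 13.8 ± 1.79 in WT/WT. Under a WT shoot its root effect was -0.27 ± 0.13 (adjusted p = 0.18), of opposite sign to the 0.30 of PLT2. The ratio of PLT2 to PLT1 counts within a library had medians of 0.77 in cpd/cpd and 0.838 in WT/cpd, against 0.572 in cpd/WT and 0.595 in WT/WT. The lowest ratios were 0.643 in cpd/cpd and 0.824 in WT/cpd, and the highest were 0.647 in cpd/WT and 0.638 in WT/WT. The ratio therefore separated WT/cpd from both groups with WT roots, with a small overlap between cpd/cpd and cpd/WT.

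Other PLETHORA relatives and the upstream peptide pathway are short lists, of 3 and 4 tested genes. In each comparison 0 of either list were called, where between 1.86% and 9.45% of all tested genes were. ANT, a relative with roles in organ growth, averaged 41.5 ± 5.53 CPM in cpd/cpd, 38.1 ± 4.43 in WT/cpd, against 37.8 ± 6.62 in cpd/WT and 36.6 ± 7.23 in WT/WT, and PLT5, which acts in lateral roots, averaged 4.32 ± 0.729, 4.15 ± 0.717, 3.74 ± 0.96 and 4.72 ± 0.74 CPM in the same groups. Of the RGF pathway, whose sulfated peptides raise PLETHORA protein, only RGF1, RGF2, RGF3 and TPST were in the list used. The entries RGI1, RGI2, RGI3, RGI4 and RITF1 had no name in the reference and were left out. For WT/cpd against WT/WT all 4 log2 differences were negative, with a median of -0.56 against -0.01 for all genes. RGF3, one of the peptide precursors, averaged 6.33 ± 1.43 CPM in cpd/cpd, 5.78 ± 1.23 in WT/cpd, against 6.88 ± 1.41 in cpd/WT and 8.32 ± 1.63 in WT/WT, and its difference of -0.53 ± 0.19 in that comparison had an adjusted p of 0.083. TPST, the enzyme that sulfates the peptides, averaged 30.8 ± 1.48 CPM in cpd/cpd, 30.5 ± 3.13 in WT/cpd, against 29.3 ± 0.867 in cpd/WT and 32.4 ± 2.44 in WT/WT.

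SHR, SCR, JKD and MGP gave no call in any of the 8 comparisons. SHR varied least, averaging 30.9 ± 2.75 CPM in cpd/cpd, 28.3 ± 1.72 in WT/cpd, against 30.7 ± 1.43 in cpd/WT and 31.2 ± 2.39 in WT/WT. Its root effect was -0.14 on the log2 scale under a WT shoot (95% interval -0.29 to 0.01) and 0.01 under a cpd shoot (-0.14 to 0.16). SCR averaged 34.7 ± 3.67, 34.6 ± 2.95, 30.7 ± 2.21 and 34.2 ± 2.63 CPM in cpd/cpd, WT/cpd, cpd/WT and WT/WT. Its root effect under a cpd shoot was 0.18 (95% interval 0.01 to 0.35, adjusted p = 0.23). MGP, a target of SHR that binds both SHR and SCR, averaged 17.3 ± 2.49, 17 ± 2.48, 15.4 ± 2.67 and 18.2 ± 2.69 CPM in the same order of groups.

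JKD, which keeps SHR in the layer next to the stele together with SCR, had 46.3, 41.2, 43.9, 42.7 and 50.1 CPM in cpd/cpd and 46, 37.1, 42.4, 47.1 and 38.8 CPM in WT/cpd. In WT roots it had 36.6, 29.5, 39.8, 35.6 and 36.1 CPM under a cpd shoot and 38.8, 34.9, 39.6, 46.2 and 43.1 CPM under a WT shoot. Every cpd/cpd library lay above every cpd/WT library, as in 2.23% of all tested genes, while WT/cpd and WT/WT overlapped. Under a cpd shoot the root effect on JKD was 0.33 ± 0.09 (1.26-fold, adjusted p = 0.057), and 5 of the 19 alternative settings called it, among them the DESeq2 test (adjusted p = 0.025) and the fit without cpd/cpd replicate 2 (0.049).

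Among 9 partners and targets of SHR and SCR, CYCD6;1 was the one called. This D-type cyclin, a direct SHR and SCR target, drives the division that separates cortex from endodermis. It averaged 9.6 ± 1.06 CPM in cpd/cpd, 5.14 ± 0.759 in WT/cpd, against 8.63 ± 2.32 in cpd/WT and 6.3 ± 2.12 in WT/WT. On cpd roots it was 1.87-fold higher with a cpd than with a WT shoot (0.90 ± 0.20, adjusted p = 0.017), and averaged over both roots 1.6-fold higher (0.68 ± 0.14, adjusted p = 0.0096). Of all tested genes 4.66% and 5.8% were called in these comparisons, so a single call in a list of this size is little above those shares. SHR and SCR themselves gave shoot effects of 0.13 and 0.01 on cpd roots. CNA averaged 109 ± 6.55 CPM in cpd/cpd, 114 ± 10.6 in WT/cpd, against 110 ± 14.3 in cpd/WT and 107 ± 4.44 in WT/WT, and PHB 108 ± 9.78, 110 ± 14.4, 104 ± 13.8 and 107 ± 5.96 CPM. Both are HD-ZIP III factors, a family restricted by microRNAs downstream of SHR, and neither was called.

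In the list for the distal stem cells and columella, 2 of 10 tested genes (BRN1 and BRN2) rose in WT/cpd relative to WT/WT, where 9.45% of all tested genes were called. These NAC factors act in root cap maturation. BRN1 averaged 5.11 ± 1.35 CPM in cpd/cpd, 6.36 ± 1.04 in WT/cpd, against 4.42 ± 0.321 in cpd/WT and 2.79 ± 0.83 in WT/WT. It was 2.26-fold higher in WT/cpd than in WT/WT (1.18 ± 0.20, adjusted p = 0.0021) and 1.58-fold higher in cpd/WT than in the WT/WT grafts (0.66 ± 0.20, adjusted p = 0.047), with an interaction of -0.96 ± 0.28 (adjusted p = 0.039). BRN2 averaged 3.9 ± 0.479 CPM in cpd/cpd, 4.35 ± 0.55 in WT/cpd, against 3.27 ± 0.958 in cpd/WT and 2.42 ± 1.14 in WT/WT, and its root effect under a WT shoot was 0.84 ± 0.24 (adjusted p = 0.031). CLV1, a receptor kinase that acts with ACR4 in the columella stem cells, averaged 80 ± 11.3 CPM in cpd/cpd, 108 ± 18.5 in WT/cpd, against 106 ± 25 in cpd/WT and 113 ± 13.3 in WT/WT. It was lower in cpd/cpd than in WT/WT (-0.50 ± 0.15, adjusted p = 0.047), and the other 7 comparisons gave no call. ARF16, an auxin response factor that restricts WOX5, averaged 35.9 ± 2.26 CPM in cpd/cpd, 40 ± 3.26 in WT/cpd, against 35.2 ± 2.21 in cpd/WT and 35.1 ± 5.08 in WT/WT, and its relative ARF10 averaged 34.1 ± 2.53, 34.9 ± 2.47, 29.5 ± 1.14 and 33.8 ± 6.2 CPM. Neither was called. CLE40, the peptide gene of this pathway, and WIP5 were below the filter and not tested. Of the 10 tested genes 1 was also called higher between the whole grafts, against 3.72% of all tested genes. For the root averaged over both shoots 1 was higher, against 2.33%. The shares beside the other calls were 6.21% higher for the shoot on WT roots, 5.43% lower for the interaction and 2.63% lower between the whole grafts.

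Counted over all 10 members, 1 (BRAVO) rose in WT/cpd relative to WT/WT, where 9.45% of all tested genes were called in either direction. Under a cpd shoot 2 rose (BRAVO and PLT3), against 1.86% of all tested genes, and 9 of 10 log2 differences were positive, with a median of 0.26 against 0.02 for all genes. Of these, SHR (0.01) took the other sign or 0 under 10 of 19 alternative settings and PLT1 (0.10) under 1. For the shoot genotype on WT roots 2 fell (PLT3 and PLT4), where 9.11% of all tested genes were called, and 9 of 10 differences were negative, with a median of -0.29 against -0.01. Of these, SHR (-0.02) took the other sign or 0 under 4 of 19 settings. On cpd roots the shoot gave 0 called members, where 4.66% of all tested genes were called. At an unadjusted p under 0.05 there was 1 (PLT4), and DESeq2 called 1. The median of the 10 differences was 0.02, the same as for all genes.

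Between the whole grafts 1 member was called (BRAVO), where 6.36% of all tested genes were. The root averaged over both shoots gave 3 (BRAVO, PLT2 and PLT3), against 4.52% of all tested genes. The shoot averaged over both roots gave 1 (PLT4), against 5.8%. The interaction gave 0, against 7.73%, with 3 members at an unadjusted p under 0.05 (PLT1, PLT3 and JKD) and 0 in DESeq2. In 7 of the 10 members the lowest of the 4 group means was that of cpd/WT, and the comparisons of this group with cpd/cpd and with WT/WT share these libraries. The summed level of the 10 members was 211 to 237 CPM in cpd/cpd (median 226) and 206 to 236 CPM in WT/cpd (median 221). It was 170 to 194 CPM in cpd/WT (median 176) and 195 to 224 CPM in WT/WT (median 212). The highest cpd/WT library was below the lowest library of each other group, but only narrowly for WT/WT. Members with the most reads, such as PLT3 (mean 47 CPM) and JKD (40.8 CPM), weigh most in this sum.

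**Figure D3:**
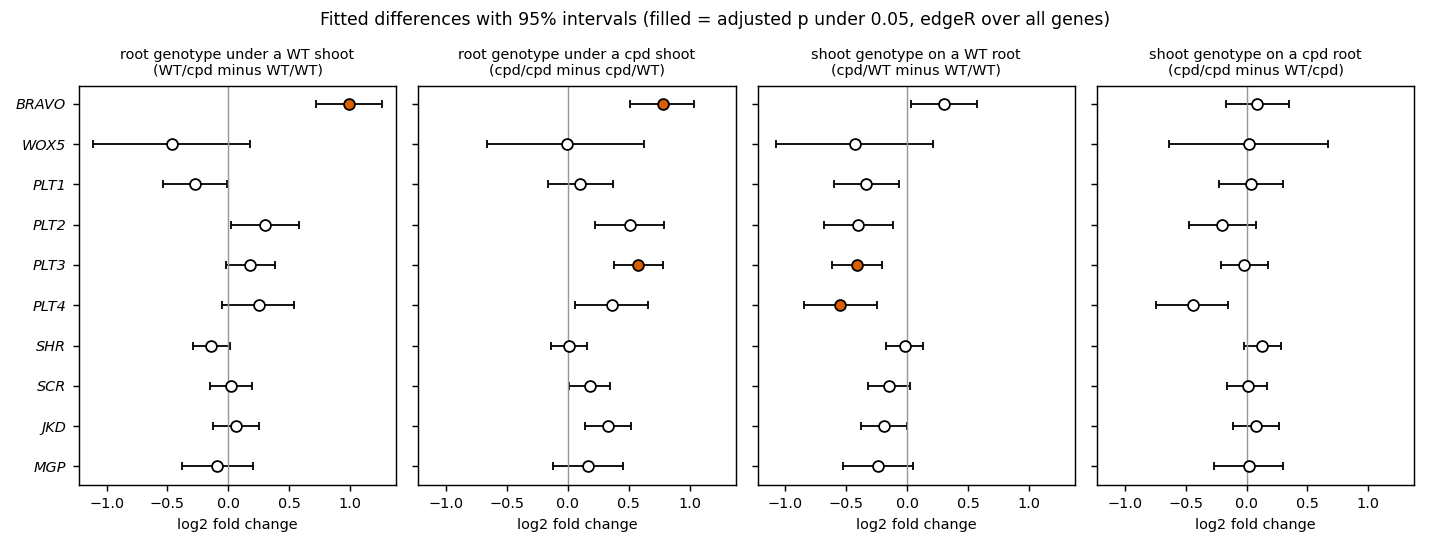
Log2 fold changes of the niche regulators with 95% intervals in the 4 comparisons of single grafts, where filled points had an adjusted p under 0.05 in edgeR over 20862 genes. Filled points are BRAVO for the root under both shoots, PLT3 for the root under a cpd shoot and for the shoot on a WT root, and PLT4 for the shoot on a WT root.

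Markers of cell types and tissues that could shift with these genes were measured in the same libraries. The summed level of 13 dividing cell markers was 251 to 370 CPM in cpd/cpd (median 362), 212 to 335 in WT/cpd (290), against 263 to 332 in cpd/WT (280) and 232 to 446 in WT/WT (279), overlapping in all groups. For the root genotype under a cpd shoot all 13 differences were positive, with a median of 0.22, and 1 was called, the mitotic cyclin CYCB2;1 (0.76 ± 0.13, adjusted p = 0.0042). The same cyclin was lower in cpd/WT than in WT/WT (-0.55 ± 0.13, adjusted p = 0.014), the comparison in which PLT3 and PLT4 fell. Between WT/cpd and WT/WT, where BRAVO also rose, 12 of the 13 differences were negative and 0 were called. All 13 were positive for the whole grafts (median 0.16), where BRAVO was called, and for the shoot on cpd roots (median 0.30), where the members' median was 0.02, and 0 were called in either. Of all tested genes 1.86% were called for the root under a cpd shoot and 9.11% for the shoot on WT roots. The shares were 9.45% between WT/cpd and WT/WT, 6.36% for the whole grafts and 4.66% for the shoot on cpd roots.

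The 8 lateral root primordium markers summed to 70 to 85.7 CPM in cpd/cpd, 84.9 to 90.7 in WT/cpd, against 55.3 to 84.5 in cpd/WT and 73.7 to 80.8 in WT/WT, with 1 marker (LRP1) higher in WT/cpd than in WT/WT and 3 (LBD16, PUCHI and LRP1) lower in cpd/cpd than in WT/cpd. Between the whole grafts 3 of the 8 were lower (LBD16, LBD29 and PUCHI). Of all tested genes 6.19% were called higher in WT/cpd than in WT/WT. Called lower were 3.25% in cpd/cpd relative to WT/cpd and 2.63% between the whole grafts. Endodermis markers, 6 genes of the layer in which SCR and JKD act, summed to 73.1 to 142 CPM in cpd/cpd, 82.8 to 128 in WT/cpd, against 133 to 173 in cpd/WT and 145 to 242 in WT/WT. In WT/cpd relative to WT/WT 4 of the 6 were called lower, CASP1, CASP2 and CASP4 among them, against 3.26% of all tested genes. SCR and JKD gave differences of 0.02 ± 0.08 and 0.06 ± 0.09 there. In cpd/cpd relative to WT/WT 3 were lower, CASP1 and CASP4 among them, against 2.63%. For the shoot on WT roots, where PLT3 and PLT4 fell, 1 (CASP4) was lower, against 2.9%.

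The 6 root hair markers summed to 84.1 to 193 CPM in cpd/cpd, 116 to 167 in WT/cpd, against 111 to 174 in cpd/WT and 85 to 145 in WT/WT. Of these, PRP3 was called higher relative to WT/WT in each of the other 3 groups. Of all tested genes 6.19% (WT/cpd), 6.21% (cpd/WT) and 3.72% (cpd/cpd) were called higher there. The 5 vascular markers summed to 288 to 335 CPM in cpd/cpd, 263 to 320 in WT/cpd, against 252 to 326 in cpd/WT and 298 to 350 in WT/WT. For the shoot on WT roots, where PLT3 and PLT4 fell, the xylem genes VND7 and XCP1 were higher and the phloem sucrose transporter gene SUC2 was lower. Between the whole grafts XCP1 was higher and SUC2 lower. Of all tested genes 9.11% were called for the shoot on WT roots and 6.36% between the whole grafts. The 9 shoot tissue markers summed to 1420 to 2800 CPM in cpd/cpd, 1110 to 2370 in WT/cpd, against 1470 to 2600 in cpd/WT and 806 to 1470 in WT/WT. They were called higher in 7 of 9 cases for the shoot genotype on WT roots, against 6.21% of all tested genes. For WT/cpd against WT/WT it was 3 of 9, against 6.19%. For the root genotype under a cpd shoot and the shoot genotype on cpd roots it was 0 of 9, where 1.86% and 4.66% of all tested genes were called in either direction. Between the whole grafts, where BRAVO was called, 2 of 9 were called higher, against 3.72%. The shoot averaged over both roots gave 3 of 9 higher, against 3.5%, and the interaction 3 of 9 lower, against 5.43%. Within cpd/cpd, replicate 4 had the lowest dividing cell (251), endodermis (73.1) and root hair (84.1) sums and the highest shoot tissue sum (2800). Within WT/WT, replicate 4 had the highest dividing cell (446), endodermis (242) and root hair (145) sums and the lowest shoot tissue sum (806). None of these marker genes was at 0 in all libraries. The part of these markers in the members' differences was not tested.

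Across the 20 libraries, the members whose levels moved most closely together were PLT2 and PLT3 (Pearson r = 0.82), PLT2 and PLT4 (r = 0.78) and PLT3 and PLT4 (r = 0.68). These values share libraries and group differences. Within groups, from deviations from the group means, they were 0.45, 0.50 and 0.30 in the same order of naming. PLT1 and PLT2 showed the opposite, with r = 0.50 over all libraries and 0.79 within groups, the highest of the 45 within-group values. SHR correlated within groups with MGP (0.53), JKD (0.49) and SCR (0.45). BRAVO and WOX5, which both act in the quiescent centre, gave r = -0.35 over all libraries and 0.01 within groups. With 10 to 40 counts of WOX5 per library, these values are limited by counting noise.

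**Figure D4:**
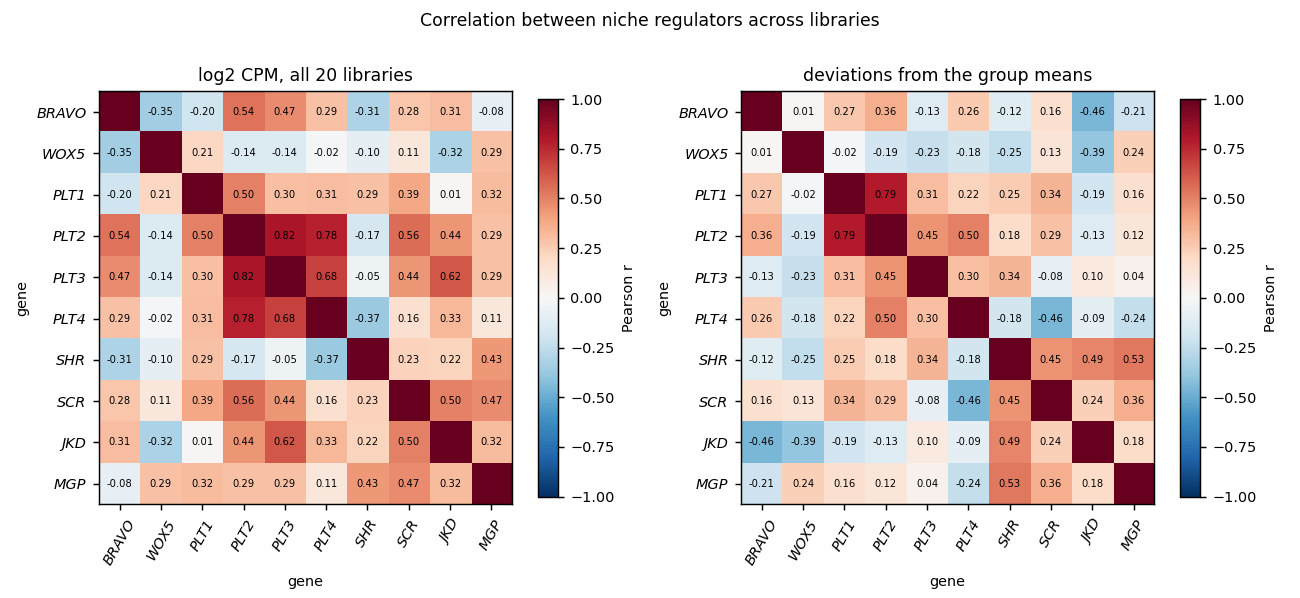
Pearson r between the log2 CPM of the niche regulators over 20 libraries (left) and between their deviations from the group means (right), on a colour scale from -1 to 1. PLT2, PLT3 and PLT4 form a block of r from 0.68 to 0.82 on the left, and the highest value on the right is 0.79, between PLT1 and PLT2.

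Among the 14504 genes whose mean log2 CPM reached 3, those whose levels were most like those of BRAVO over the 20 libraries were ENGase85A (r = 0.88), AT4G16770 (0.87), CYP90D1 (0.87), AT2G41780 (0.86) and COPT1 (0.86), where the 95th percentile of all r was 0.49. CYP90D1 encodes a brassinosteroid synthesis enzyme and averaged 52.9 CPM in cpd/cpd, 45.4 in WT/cpd, against 33.1 in cpd/WT and 21.2 in WT/WT. COPT1, a copper transporter, averaged 15.2, 16.9, 10.8 and 10.5 CPM in the same groups. These genes were chosen for likeness to BRAVO, whose level is split by root genotype, so that their own calls for the root, 5 of 5 under each shoot, follow largely from the choice and are no result. Within groups their r with BRAVO was 0.14, 0.33, 0.06, -0.14 and 0.32 in the order of naming, so their likeness lay in the group means. Ranked by deviations from the group means, the first 5 were other genes, ELM1 (0.87), AT4G22350 (0.83), AT5G49060 (0.74), AT2G44525 (0.72) and AT1G05785 (0.72), of which 0 were called in either root comparison.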

How the data were processed

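Per the labels' protocols, RNA came from pooled roots by the RNeasy Plant Mini Kit, and the library kit was NEBNext Ultra II Directional. The submitters' processing notes name STAR and TAIR10 with no version. How reads were counted (tool, annotation, strand) is not given in the sources used here. Values deposited by the authors are raw, unnormalized counts for 32833 gene codes, of which 32548 were in the reference table of TAIR10.1.

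The test was edgeR 4.0.16 (R 4.3.3), after its default filter by group (20862 genes left), with libraries scaled by TMM, and 1 mean per group fitted over all 20 libraries with the robust quasi-likelihood method (16 residual degrees of freedom). Adjusted p values are Benjamini-Hochberg values over all genes tested, and a gene was called under 0.05. Standard errors come from the F statistic. The procedure was also run on counts simulated from the fitted spread of these data. The outcome is not reported here, and such counts do not cover atypical libraries. No library was a duplicate of another: the chi-square per degree of freedom was 6.16 to 53.8 over 40 pairs within groups. The labels do not say whether replicates came from separate plates or days, so p-values cover the spread among these root pools, which may be technical.

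There were 8 comparisons: root genotype under each shoot, shoot genotype on each root, the whole grafts, both averages and the interaction. The members and gene lists were chosen with earlier results of these data known. The text names all members, the called genes of 5 pathway lists plus up to 2 others of highest level, CPD and the 5 genes most like BRAVO. Single marker genes, RBK1 and the genes ranked by deviations fall outside this rule and were chosen after their values were seen. Not every called marker gene is reported here. Of 103 list entries, 8 had no name in the reference and were left out. Alternatives were DESeq2 1.42.0, its size factors in edgeR, limma 3.58.1 with voom and library weights, 2 other filters, the replicate number as a block, the compared groups alone, no robust estimation, and leaving out libraries. The replicate numbers did not pair the samples. Promoters came from RefSeq's TAIR10.1 genome, placed by gene code.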

Additional observations from a re-analysis of the deposited data

Results flagged for a closer look

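Of 40 sets of 5 libraries (10 members in 4 groups), 3 held a library that stood apart from the others of its group by Dixon's criterion, which chance meets in about 1 of 20 groups. PLT1 was at 7.82 CPM in cpd/WT replicate 3, against 11.1 to 12.1 CPM in the other libraries of that group. PLT3 was at 44.2 CPM in WT/WT replicate 2, against 47 to 48 CPM in the others. SHR was at 35.4 CPM in WT/WT replicate 4, against 29.6 to 30.7 CPM in the others.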

How the results depend on the processing

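Over 80 member values and 1790 comparisons with an alternative setting, 1756 stayed on the same side of the threshold, 4 lost a call (PLT4, shoot on WT roots), 30 gained one and 0 called values changed sign. Among values that were not called, 76 of the comparisons, in 15 member values, had another sign or came to 0 at 2 decimals. The largest of these values was 0.1 in size on the log2 scale. The root and whole-graft calls of BRAVO held under every alternative run, with adjusted p from 6.4e-11 to 0.0085 under a WT shoot and from 1.3e-06 to 0.015 under a cpd shoot. The cause of the changes in counts was not tested.

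Members called for the root under a cpd shoot were 4 with DESeq2, 4 with limma-voom weights and 4 without the 4 least typical libraries. For the shoot on cpd roots they were 1 with DESeq2, 2 with limma-voom and 1 without the least typical libraries. For the whole grafts limma-voom gave 2, and for the averaged shoot DESeq2 gave 3, limma-voom 2 and the replicate block 2. Leaving out 1 library gave 1 to 3 for the shoot on WT roots, 0 to 1 on cpd roots, 1 to 2 for the averaged shoot and 0 to 1 for the interaction.

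The replicate numbers did not pair the samples: over 30 pairs with the same number r lay between -0.51 and 0.43, and in 8 of these 30 comparisons the number shared was the best match. With the replicate block, members called were 1, 3, 2, 0, 1, 4, 2 and 0 in the order of the 8 comparisons, and all genes called 1631, 353, 1591, 650, 988, 860, 967 and 1415. BRAVO was at 1 (adjusted p = 8.1e-05) and 0.79 (0.0011) in the root comparisons.

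Counts of all genes called moved further. DESeq2 gave 1249 for the root under a cpd shoot, 1666 for the shoot on cpd roots, 2106 for the whole grafts, 1601 for the averaged root and 1935 for the averaged shoot. Limma-voom gave 5598 for the root under a cpd shoot, 3768 and 4272 for the shoot on WT and cpd roots, 6398 for the whole grafts, 2675 and 3641 for the averaged root and shoot and 4129 for the interaction. Without the 4 least typical libraries (cpd/cpd 4, WT/cpd 2, cpd/WT 2 and WT/WT 4) the counts were 3575, 3721, 2618, 4959, 4202, 1941 and 2968 for the root under a WT and a cpd shoot, the shoot on cpd roots, the whole grafts, the averaged root and shoot and the interaction. The compared groups alone gave 991 for the root under a WT shoot and 500 for the shoot on cpd roots. Of the genes called for the root under a cpd shoot 44% were higher, against 57.5% with limma-voom and 61.8% without the least typical libraries.

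Leaving out 1 library gave 1037 to 2240 genes for the root under a WT shoot (1037 without WT/cpd 1, 1112 without WT/WT 1) and 86 to 690 under a cpd shoot (100, 99, 590 and 92 without cpd/cpd 1, 3, 4 and 5; 690, 86 and 190 without cpd/WT 2, 3 and 4). For the shoot it gave 893 to 1777 on WT roots (1206 without cpd/WT 4, 893 and 1106 without WT/WT 1 and 3) and 449 to 1250 on cpd roots (485, 449 and 520 without cpd/cpd 1, 3 and 5; 455 and 569 without WT/cpd 1 and 3). The whole grafts gave 647 to 2173 (760 and 647 without cpd/cpd 1 and 3; 686, 799, 867, 2173 and 682 without WT/WT 1 to 5). The averaged root gave 691 to 1468 (1468 without WT/WT 4), the averaged shoot 808 to 1729, and the interaction 1050 to 2407 (1060 without WT/cpd 1, 1067 without cpd/cpd 5, 1050 without WT/WT 1). At 10 to 40 counts per library, WOX5 is the member most limited by depth.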
